A study of Mus musculus with 3 samples.

Results

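Where GLI3 peaks lie close together in the genome of the mouse limb bud, they form chains, and the chains of 5 or more peaks are described here. Members were chosen by position alone: all listed autosomal peaks were sorted by chromosome and summit, peaks whose summits lay at most 10 kb from the next were joined, and joined runs of at least 5 peaks were kept. This gave 259 chains holding 1804 of the 16854 autosomal peaks, or 10.7%. A further 6767 peaks (40.2%) lay in 2869 chains of 2 to 4, and 8283 peaks (49.1%) had no neighbour within 10 kb and are called unchained. Because spacing and peak number set the rule, spans, peak counts and gaps are given as a description.

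GLI3 is one of the transcription factors at the end of the Hedgehog (HH) pathway. Without HH ligand it is processed into a repressor, and ligand binding to the receptor PTCH1 relieves the block on Smoothened and stops that processing. In the limb bud Sonic hedgehog comes from the posterior margin, and GLI3 shapes the anterior to posterior pattern of digits, partly through the 5′ Hox genes.

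The peaks came from chromatin immunoprecipitation and sequencing (ChIP-seq) of FLAG-tagged GLI3 in forelimb buds at E10.5 (32 to 35 somites). The labels give a wild type genotype on a mixed strain background, and the study describes an endogenous Gli3 allele with a FLAG tag. There were 2 ChIP replicates and 1 input library, each from limb buds of 2 litters pooled and amplified with 15 PCR cycles. The single peak list is attached to ChIP replicate 1, does not say whether replicate 2 entered it and carries no values per replicate and no read totals, so no value below has a replicate error and the exact depth behind it is unknown. Fold enrichment is the authors' largest log2 ratio of ChIP over input within a peak, and the false discovery rate (FDR) is theirs too.

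The chains differed more in length than in peak number. Their span, from first to last summit, had a median of 10240 bp and ran from 1535 bp at Sinhcaf to 72920 bp at the HoxB cluster. Together they covered 3.15 Mb, or 0.128% of the autosomes. Of the 259 chains, 109 had exactly 5 peaks, 53 had 6, 38 had 7 and 28 had 10 or more. Those 28 held 413 peaks, and the 3 with 20 or more peaks, all in Hox clusters, held 103. The median gap between neighbouring summits was 1010 bp (quartiles 565 and 2665 bp), and 49.7% of the 1545 gaps were under 1 kb. Of these gaps 29 exceeded 9 kb, and the largest was 9925 bp. The number of chains depended on the gap limit, with 178 chains of 5 or more peaks at 5 kb and 389 at 20 kb. Just outside the rule, 15 pairs of smaller neighbouring chains lay 10 to 11 kb apart and would have held 5 or more peaks together. The 229 chains of exactly 4 peaks had a median fold enrichment of 2.24 on the log2 scale and 47.7% promoter peaks, against 2.24 and 44.8% in the 109 chains of exactly 5.

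**Figure D1:**
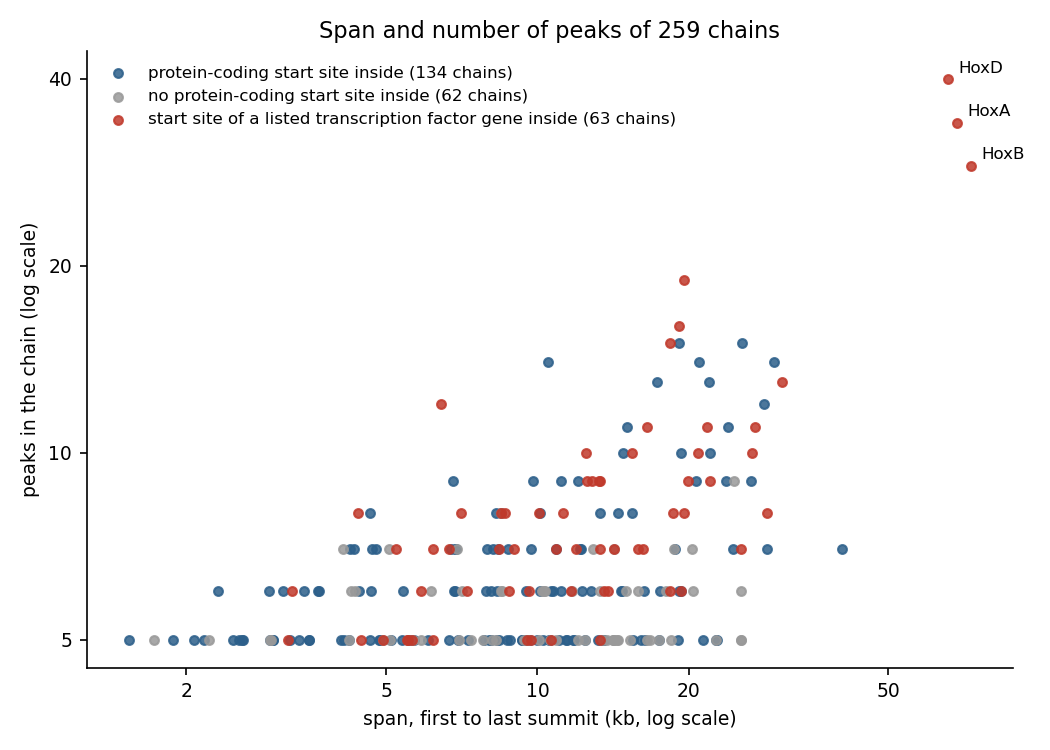
Span from first to last summit (kb, log scale) against number of peaks (log scale) for each of the 259 chains, one point per chain. Red points hold the start site of a gene from the transcription factor lists (63 chains), blue points hold other protein-coding start sites (134) and grey points none (62); the 3 Hox chains at the upper right span 65580 to 72920 bp, away from all other chains.

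The median fold enrichment was 2.22 (log2) among members and 2.22 among unchained peaks, and 756 of 1804 members (41.9%, 95% Wilson interval 39.6 to 44.2) had an FDR under 0.05, against 42.7% of all autosomal peaks and 41.9% of unchained peaks. The strongest peak per chain had a median of 3.01 and the other 1545 members 2.14 (log2), a gap that taking the highest value of each chain sets in part. In 16 chains no peak passed that FDR, and in 3 every peak did. The list reaches up to an FDR of 1, so many members are weak calls, and only 38 chains of 5 or more peaks remained when peaks were first limited to an FDR under 0.05. Across the 259 chains, which share the same libraries, Spearman's rho between the number of peaks and the highest fold enrichment was 0.19, given as a description. Of the 20 highest-ranked peaks 5 were members. Among the 1000 highest-ranked, 994 were autosomal and 111 of these were members, near the 10.7% of all autosomal peaks.

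The DNA at these chains is shown first by the GLI motif, taken as the consensus GACCACCCA on either strand, with 1 base allowed to differ, in a window reaching 250 bp to either side of the summit. The sites below were read from GRCm38 (mm10), 5′ to 3′ on the strand given, with the 9 matched bases in capitals. They are a selection from the chains with most peaks, with the highest-ranked peaks or with most peaks per kb, shown as examples of exact and near matches. Sites of other chains, those at Ier2, Hand2, Foxf1 and Ccnd1 among them, are not printed.

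Ptch1 chain, chr13:63566425-63566453, plus strand, exact: aaagtagagaGACCACCCAggtaggcaac
Ptch1 chain, chr13:63573455-63573483, minus strand, exact: tggcgcggcaGACCACCCAcgccgagggc
Evx2 to Hoxd3 chain, chr2:74673910-74673938, minus strand, 1 mismatch: ctggcaaggaGACCACACAggcgccgccg
Hoxa5 to Hoxa13 chain, chr6:52217530-52217558, plus strand, 1 mismatch: cgcggcacgtGACCGCCCAcatgaccgcc
Hoxa5 to Hoxa13 chain, chr6:52239870-52239898, plus strand, exact: cacagacgctGACCACCCAttgtttccaa
Tmem119 chain, chr5:113800511-113800539, plus strand, 1 mismatch: gactatgccgGGCCACCCAcagtcccacc
Chain near Shisal2a, chr4:108362845-108362873, plus strand, 1 mismatch: gctggactttGACCAGCCAacaccagtga
Dlx2 chain, chr2:71538533-71538561, plus strand, exact: tgaggaaattGACCACCCAagacaaattt
Barhl2 chain, chr5:106450654-106450682, plus strand, exact: cccctgcactGACCACCCAcggagtccaa
Zfp362 chain, chr4:128804718-128804746, plus strand, exact: aggctaagaaGACCACCCAtacctgaagg

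Such matches are common by themselves. A motif lay under 17.9% of all autosomal peaks and an exact one under 2.17%, while windows of the same length 2 kb to either side of the summits held a motif in 10.7%. Those windows were not cleared of other listed peaks. These letters are a description of the sequence and do not show that GLI3 occupies the site.

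The chain with most peaks covered the 5′ part of the HoxD cluster, whose genes set the pattern of the digits and are HH targets in the limb. It ran over chr2:74649077-74714657 with 40 peaks in 65580 bp, holding start sites of Evx2, Hoxd13, Hoxd12, Hoxd11, Hoxd10, Hoxd9, Hoxd8 and Hoxd3. Fold enrichments ran from 1.78 to 4.31 (log2), and 22 of the 40 peaks had an FDR under 0.05. The highest lay 1071 bp from the Hoxd12 start site and held the minus-strand motif printed above. Next came a peak of 3.84, 103 bp from the Hoxd8 start, and one of 3.11 in the intergenic DNA 8317 bp from Evx2. At Hoxd13 and Hoxd11 the peaks nearest the start sites had 2.53 and 2.97. A motif lay under 9 of the 40 peaks, the most of any chain. Beyond it, a second chain of 7 peaks began at 74727727 and held a further start site of Hoxd3.

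The HoxA cluster held 2 chains. From Hoxa5 to Hoxa13, chr6:52202892-52271292, 34 peaks spread over 68400 bp, with 11 under the FDR and a highest fold enrichment of 4.19 at 42 bp from a Hoxa7 start. Around Hoxa2, chr6:52158442-52177552, 16 peaks filled 19110 bp with no motif under any of them. In the HoxB cluster, chr11:96281762-96354682, 29 peaks ran from Hoxb8 to Hoxb2, with 11 under the FDR and the highest (4.51) 1145 bp from Hoxb4. Hoxb13 stood in its own chain of 6 peaks. In the HoxC cluster 2 chains of 11 peaks each held Hoxc10 with Hoxc9 and Hoxc6 with Hoxc5; the first had 0 peaks under the FDR and the second 3.

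Hox genes are the homeodomain factors that give positions along the body and limb axes their identity. In all, 8 chains with 154 members held 28 of 39 Hox start sites. Their median fold enrichment was 2.18 (log2), and 56 of the 154 peaks (36.4%) had an FDR under 0.05, against the 42.7% of all peaks.

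**Figure D2:**
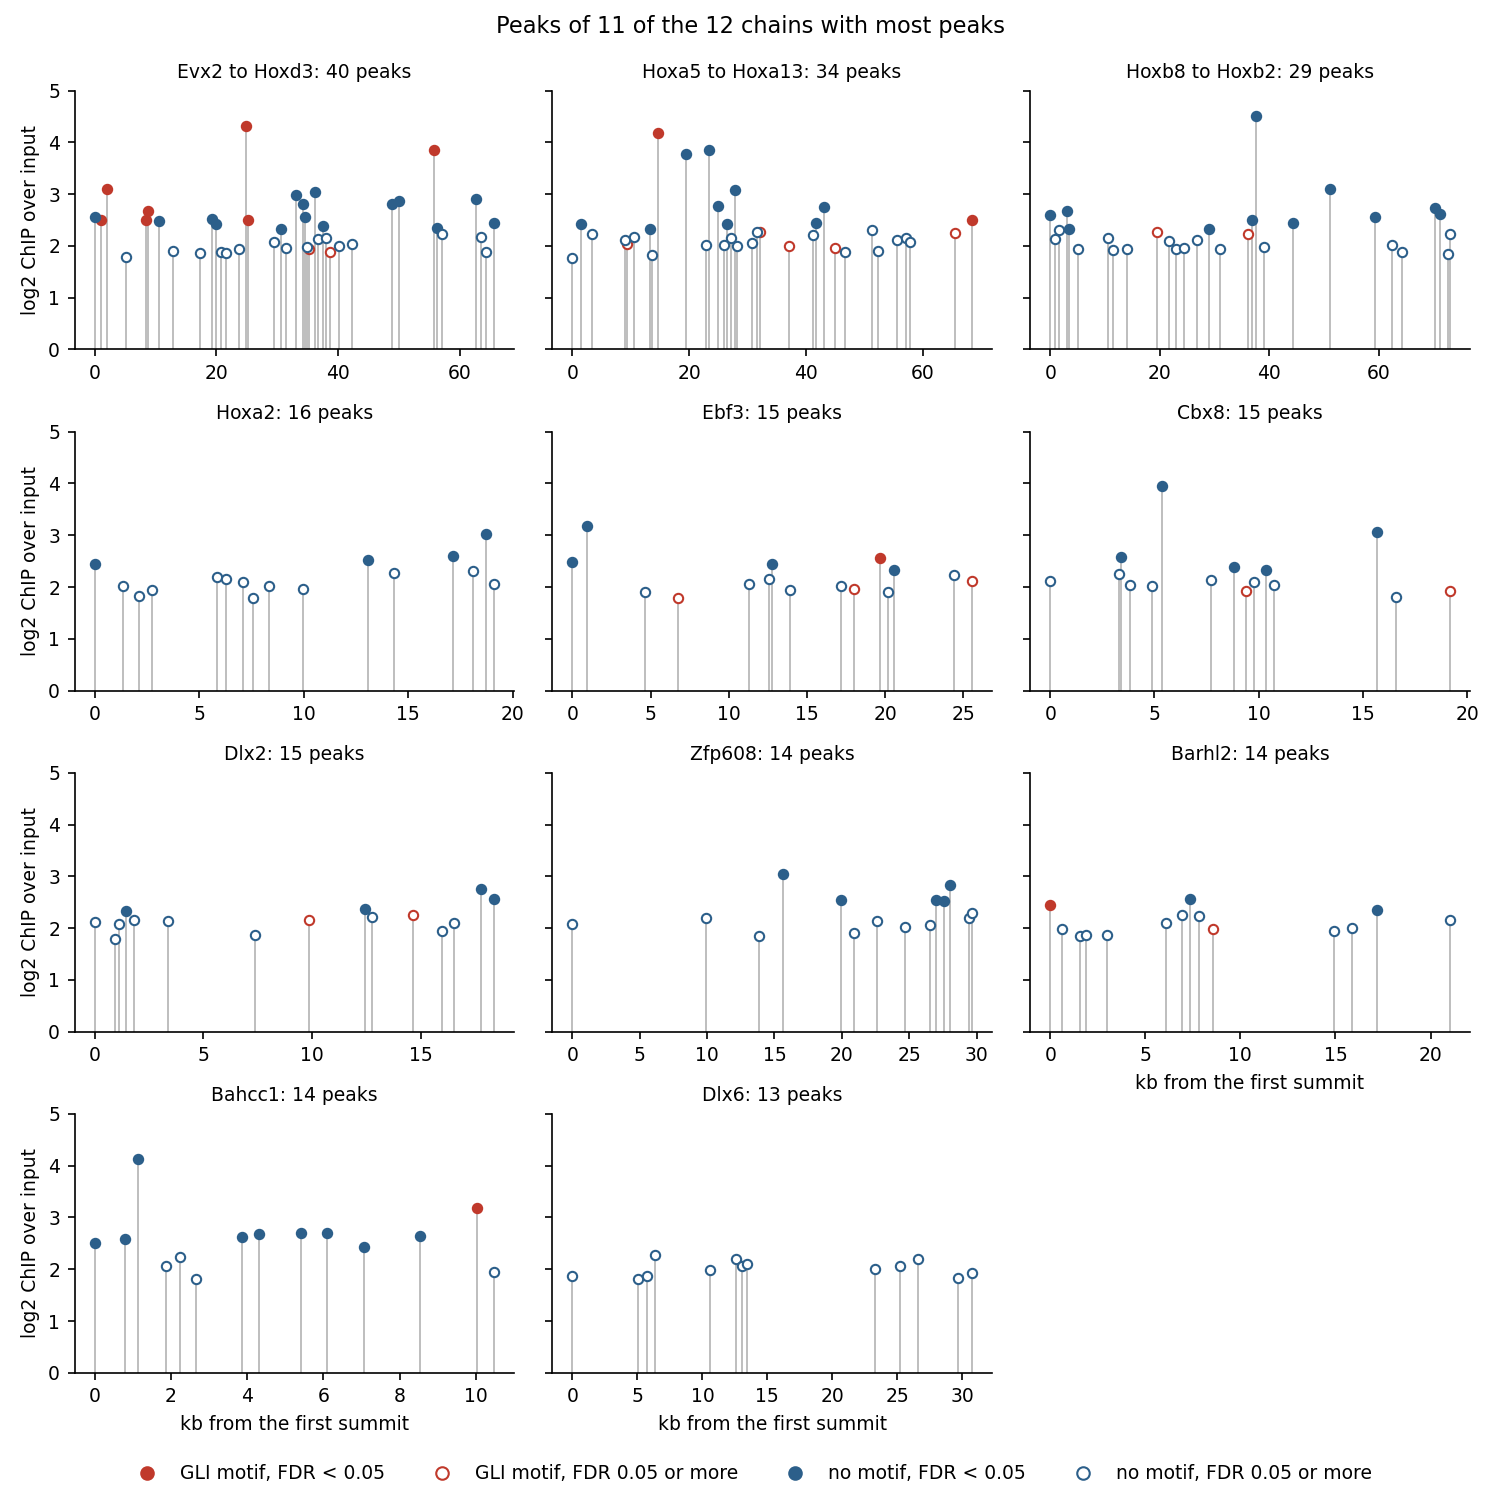
Fold enrichment of ChIP over input (log2, vertical axis) of every peak in 11 of the 12 chains with most peaks, against distance from the first summit (kb, horizontal axis). Filled points have an FDR under 0.05 and open points 0.05 or more; red points hold a GLI motif. In most panels 1 to 3 peaks stand above a row of peaks near 2, and in the Dlx6 panel all 13 peaks are open.

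Large chains also lay outside the Hox clusters. The Ebf3 chain had 15 peaks in 25545 bp, and the chain at Cbx8, which encodes a Polycomb subunit, had 15 in 19155 bp. The Cbx8 chain's highest peak (3.94) lay 1933 bp from the start site, and a second high one (3.07, both log2) lay 12253 bp away. The Dlx2 chain, at a homeobox gene of the branchial arches and forebrain, also reached over the neighbouring Dlx1 and had 15 peaks with a highest of 2.75. The chains at Barhl2, Zfp608 and Bahcc1 had 14 peaks each. In the Bahcc1 chain 10 of 14 peaks were under the FDR within 10480 bp, with a highest of 4.13. In the Dlx6 chain, which also reached over Dlx5, 0 of 13 peaks were, and its highest was 2.28. It is the longest of 3 chains tied at 13 peaks; the other two sit at Bmi1 and Zfp516.

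Of the 5 most crowded chains per kilobase 4 were short promoter runs. The Sinhcaf chain packed 5 peaks into 1535 bp (3.26 per kb), and those at Tfap2c, Hivep2 and Zfp362 held 2.66, 2.59 and 2.41 per kb. All peaks of these 4 chains were promoter peaks. The remaining chain of the 5 most crowded, with 2.91 per kb, lay inside Rere, with its strongest peak 91686 bp from the nearest protein-coding start.

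Some of the strongest peaks in the whole list had weak neighbours. The highest-ranked peak belonged to a chain of 7 over 12145 bp at Ier2, an immediate early gene. From first to last summit its fold enrichments were 2.11, 6.37, 1.87, 1.96, 2.27, 3.06 and 2.34 (log2). The Tmem119 chain had 7 peaks, with 5.20 at 29 bp from the Tmem119 start, 4.18 at 7861 bp and 3.28 at 3534 bp, and the other 4 between 2.03 and 2.36. Near Shisal2a an intergenic chain of 5 peaks ended in one of 5.29, while the rest ran from 1.91 to 2.73.

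The HH pathway gene in this set is Ptch1, the receptor and a direct target. Its chain, chr13:63558737-63573492, held 6 peaks in 14755 bp. Their fold enrichments, in order of position, were 2.61, 2.04, 6.05, 1.84, 2.15 and 5.04 (log2). So 2 peaks, ranked 2 and 19, stood far above the other 4, and each held an exact consensus, 13 and 19 bp from its summit. The summit of the peak ranked 19 lay 106 bp from the annotated 5′ end of the gene, which is at no protein-coding transcript of the basic annotation, so that peak counts as distal here. The peak ranked 2 was 7100 bp long and lay 687 bp from the nearest start of such a transcript.

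Of 42 genes on the HH pathway and limb target list, 10 (23.8%) had a start site inside a chain: Ptch1, Hand2, Hoxd11, Hoxd12, Hoxd13, Tbx2, Tbx3, Ccnd1, Foxf1 and Foxc2. By comparison 265 of 20807 protein-coding genes, or 1.27%, did. A promoter at a chain of 2 to 4 peaks, and at none of 5 or more, was found for 11 listed genes (26.2%), against 10.2% of all. Most of these 10 are limb targets that encode transcription factors, and Ptch1 is the only one of them that belongs to the pathway machinery. Gli1, a direct target and activator, had 1 promoter peak of 5.76 (log2) and no neighbour, so it was unchained. The promoter of Gli2 lay in a chain of 4 peaks. No listed promoter peak was found for Shh, Hhip or Grem1.

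Among the targets inside chains, the strongest peaks did not always lie at the promoter. In the chain at Hand2, a factor of the posterior limb bud, the 2 peaks nearest the start site had 1.98 and 1.99, while peaks 7629 and 12949 bp away had 3.05 and 3.45 (log2). The Foxf1 chain, with 11 peaks, had its highest (3.31, with an exact motif) 3679 bp from the start and promoter peaks between 1.93 and 2.70. At Tbx3 the highest of 7 peaks (3.45) lay 184 bp from the start, and at Tbx2 the highest of 6 (2.98) lay 74 bp from it. In the Ccnd1 chain, at the gene for cyclin D1, the values in order were 1.96, 1.99, 3.61, 3.65 and 2.47. The chain holding Foxc2 had 8 peaks between 1.80 and 2.27, and 0 of them were under the FDR.

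The 7 transcription factor lists together held 265 autosomal genes, of which 85 (32.1%) had a start site inside a chain, against 1.27% of all protein-coding genes. These 85 genes lay in 63 of the 259 chains (24.3%). Of the 28 chains with 10 or more peaks, 15 held such a gene. Inside were 28 of 39 Hox genes (71.8%), 24 of 94 other homeobox genes (25.5%), 8 of 41 forkhead genes (19.5%), 3 of 15 T-box genes, 2 of 9 paired box genes (22.2%), 3 of 18 Sox genes (16.7%) and 17 of 49 limb bHLH and zinc finger genes (34.7%). Smaller chains held such genes too. A promoter at a chain of 2 to 4 peaks, and at none of 5 or more, was found for 36.2% of the other homeobox genes, 33.3% of the paired box, 27.8% of the Sox, 26.8% of the forkhead and 26.5% of the limb bHLH and zinc finger genes, against 10.2% of all protein-coding genes and 5.13% of the Hox genes. The lists were chosen with earlier results of these data known, and no test was made of them.

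Those chains also differed among themselves in strength. At Hes1, a Notch target, 7 of 8 peaks had an FDR under 0.05 and the chain's median was 3.65 (log2). At the Id genes, which encode inhibitors of bHLH factors, 5 of 6 peaks at Id1, 7 of 8 at Id2 and 7 of 10 at Id3 were under it. At Pax6, Pax2 and Lhx8 none were, and the chains' highest peaks had 2.18, 2.17 and 2.00. Of the 16 chains with no peak under the FDR, 8 held a listed transcription factor gene. Over the 63 chains, 33.5% of 576 members were under the FDR, against 44.9% of 881 members in the 134 other chains with a protein-coding start.

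Among 74 BMP, FGF and Wnt signalling genes 9 (12.2%) were inside a chain, against 1.27% of all protein-coding genes: Bmp7, Nog, Smad7, Fgf9, Fgfr2, Wnt5a, Tcf7l2, Fzd2 and Fzd10. More of them, 20 (27.0%), had a promoter at a chain of 2 to 4 peaks and at none of 5 or more, against 10.2% of all genes. In the Bmp7 chain, at a ligand of the limb mesenchyme and ridge, 8 peaks spanned 15420 bp, with 3.71 at 6284 bp and 3.09 at 15189 bp from the start, both within the gene. Wnt5a had 9 peaks in 9800 bp, with a highest of 2.98. The 5 peaks at Nog, the BMP antagonist, reached at most 2.30, and 0 were under the FDR. Fgfr2 counts as inside only through 1 annotated transcript that starts at the Ctbp2 promoter and runs over other genes. Its other starts lie far outside that chain, so the 6 peaks of the Ctbp2 chain cannot be assigned to Fgfr2.

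The last 3 lists hold genes used in most cells or lying in arrays. Of 73 cytosolic ribosomal protein genes 2 (2.74%) lay inside a chain, and 19 (26.0%) had a promoter at unchained peaks only, against 20.2% of all protein-coding genes. For the Hox genes the latter share was 5.13%, and for the other homeobox genes 5.32%. No protocadherin cluster gene of 56 was inside. The 10 of 66 replication-dependent histone genes inside all lay in 1 chain of 7 peaks over 40370 bp, where near-identical gene copies make read placement uncertain.

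**Figure D3:**
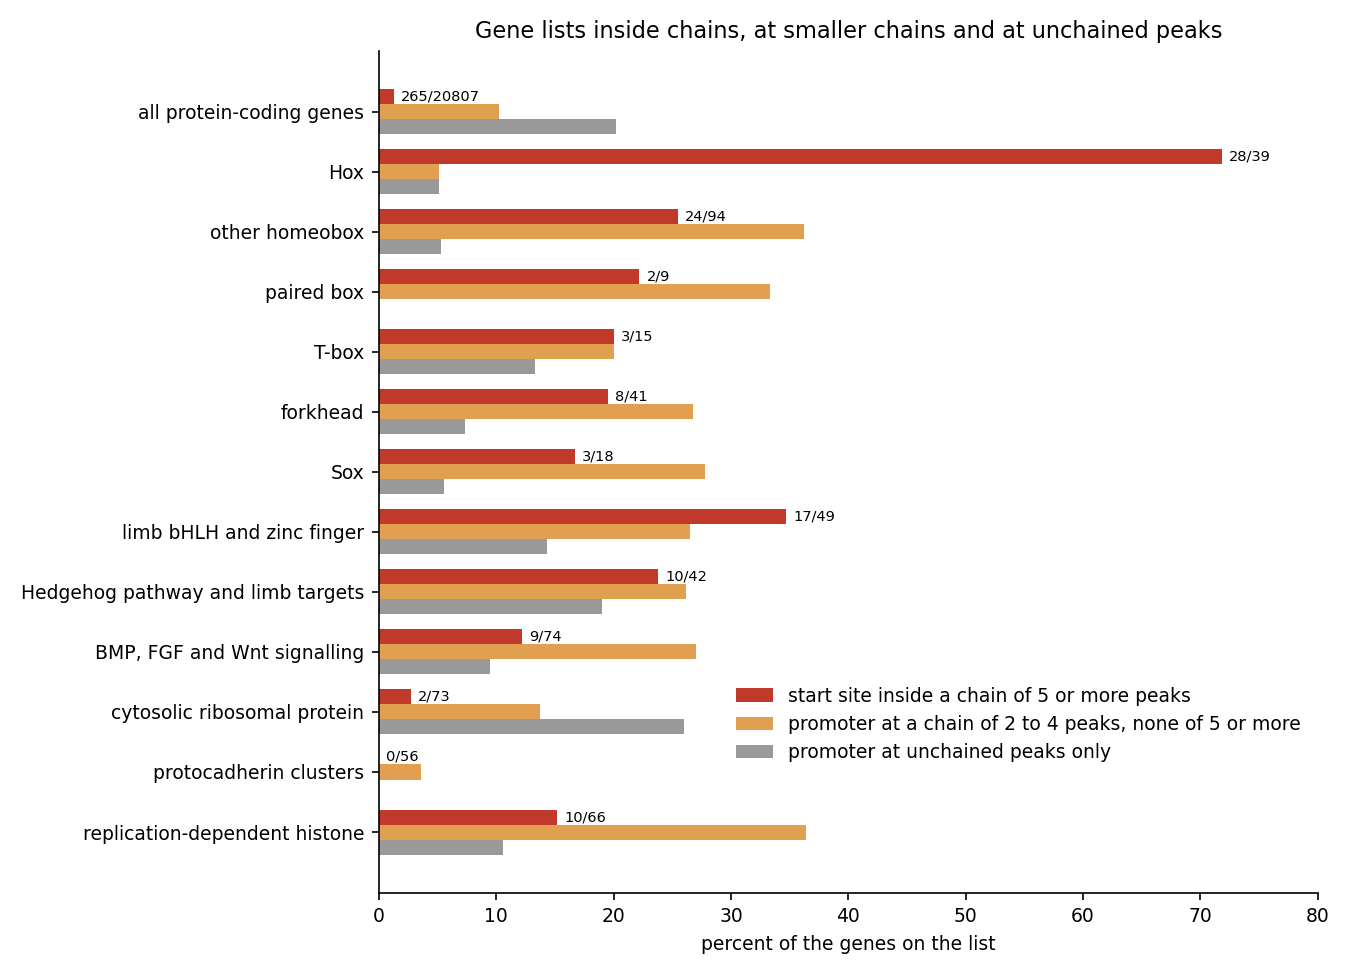
Percent of the genes on each list with a start site inside a chain of 5 or more peaks (red, with counts), with a promoter at a chain of 2 to 4 and at none of 5 or more (orange) or with a promoter at unchained peaks only (grey). The Hox list reaches 71.8% inside chains against 1.27% of all protein-coding genes. The red bar is longer than the orange one only for the Hox and the limb bHLH and zinc finger lists. For the T-box list the red and orange bars are equal. The orange bar is the longer one for every other list, among them other homeobox (36.2%) and signalling (27.0%), and for all genes. The ribosomal protein list is the only one whose grey bar (26.0%) exceeds that of all genes (20.2%).

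Most chains held start sites of 1 protein-coding gene. Such sites belonged to 1 gene in 164 chains, to 2 genes in 20 and to 3 or more in 13, and 62 chains held none. Of the 62 without one, 35 lay over the body of a protein-coding gene and 27 over none. Their 347 members had an FDR under 0.05 in 48.1%, against 40.4% of the 1457 members of chains with a start. The chain downstream of Snai1, a zinc finger repressor of epithelial identity, had the most peaks among them, with 9 in 24670 bp. In order of position its fold enrichments were 2.35, 3.79, 2.61, 2.33, 2.22, 2.19, 1.98, 4.63 and 2.17 (log2). The highest lay 25717 bp from the Snai1 start, and none of the 9 held a GLI motif.

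The next question was whether the DNA of members differs from that of unchained peaks in features that the rule did not use. Shares of peaks were compared by two-sided Fisher's exact tests, adjusted by the Benjamini-Hochberg method over 4 features. Peaks are not replicates, and 20.1% of neighbouring summits in chains had overlapping windows, so that these p-values are too small. Each test was therefore repeated with 1 peak per chain, the first by position. That peak is always at an edge of its chain and need not stand for the other members. A further repeat took the strongest peak of each chain, which sets peaks chosen for strength against unchained peaks that were not.

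CpG-rich sequence was compared first. A CpG island is a stretch rich in GC and in CpG dinucleotides, here 200 bp inside the window with a GC fraction from 0.5 upward and an observed to expected CpG ratio above 0.6. Of members 66.0% (1191 of 1804, interval 63.8 to 68.2) met this, against 52.1% (4319 of 8283) of unchained peaks. The odds ratio was 1.78 (95% interval 1.60 to 1.98, adjusted Fisher's exact p = 1.16e-26), and with 1 peak per chain it was 1.44 (p = 0.00536) for the first and 2.86 for the strongest. With stricter criteria over 500 bp the direction turned, at 35.3% of members and 38.6% of unchained peaks (odds ratio 0.867, Fisher's exact p = 0.00808).

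The difference lay away from promoters. A promoter peak overlapped the window from 2 kb before to 1 kb after a protein-coding start site. Among distal peaks, 535 of 1046 members (51.1%) lay in an island against 738 of 4522 unchained peaks (16.3%), an odds ratio of 5.37 (interval 4.65 to 6.20). It was 5.83 with 1 distal peak per chain and 5.26 under the stricter criteria. Among promoter peaks the direction was opposite, with 86.5% of members and 95.2% of unchained peaks in an island (odds ratio 0.323). Distal members also lay much nearer to genes, at a median of 5915 bp from a protein-coding start against 64798 bp for unchained ones. Within 10 kb of a start the shares were 60.3% and 28.3% (odds ratio 3.85), and beyond 10 kb they were 31.8% and 15.0% (2.64). Nearness to a gene thus moved with the result, and the odds ratio was lower in each band than in all distal peaks. By the rule, an unchained peak has no other listed summit within 10 kb, which limits listed peaks at a promoter beside it. Members have no such limit, so the near band does not set like against like. The share among distal peaks was 16.3% for unchained peaks, 21.5%, 28.5% and 39.5% in chains of 2, 3 and 4, 49.8% in chains of 5 and 60.8% in chains of 10 or more, with a lower value of 37.4% in chains of 6.

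The following stretches show what such sequence looks like. For the Ebf3 and Cbx8 chains, each with 15 peaks and the start of 1 protein-coding gene, the strongest distal island peak is given by the 200 bases with most CpG in its window, and an unchained distal peak (ranked 117, 24259 bp from Mrps18a) is given in the same way as a peak with the median CpG number of its class. Since the member peaks were picked within islands and the unchained peak was not, their CpG numbers are no comparison, and the median over whole windows was 14 CpG in distal members and 7 in unchained distal peaks. Plus strand, 5′ to 3′, GRCm38, each CpG in capitals.

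Ebf3 chain, chr7:137298177-137298376, 9 CpG: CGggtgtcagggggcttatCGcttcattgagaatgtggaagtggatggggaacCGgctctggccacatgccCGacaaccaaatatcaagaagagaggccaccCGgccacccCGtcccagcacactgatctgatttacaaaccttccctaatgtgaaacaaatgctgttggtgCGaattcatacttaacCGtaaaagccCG
Cbx8 chain, chr11:119053254-119053453, 25 CpG: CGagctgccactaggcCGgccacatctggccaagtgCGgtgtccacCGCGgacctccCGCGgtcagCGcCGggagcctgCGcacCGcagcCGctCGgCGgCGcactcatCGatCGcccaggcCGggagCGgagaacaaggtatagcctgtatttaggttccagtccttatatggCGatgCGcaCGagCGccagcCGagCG
Unchained, chr17:46086627-46086826, 5 CpG: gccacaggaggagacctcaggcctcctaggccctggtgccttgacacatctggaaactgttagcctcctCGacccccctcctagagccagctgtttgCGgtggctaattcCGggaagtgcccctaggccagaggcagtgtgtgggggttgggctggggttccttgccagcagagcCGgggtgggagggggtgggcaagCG

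**Figure D4:**
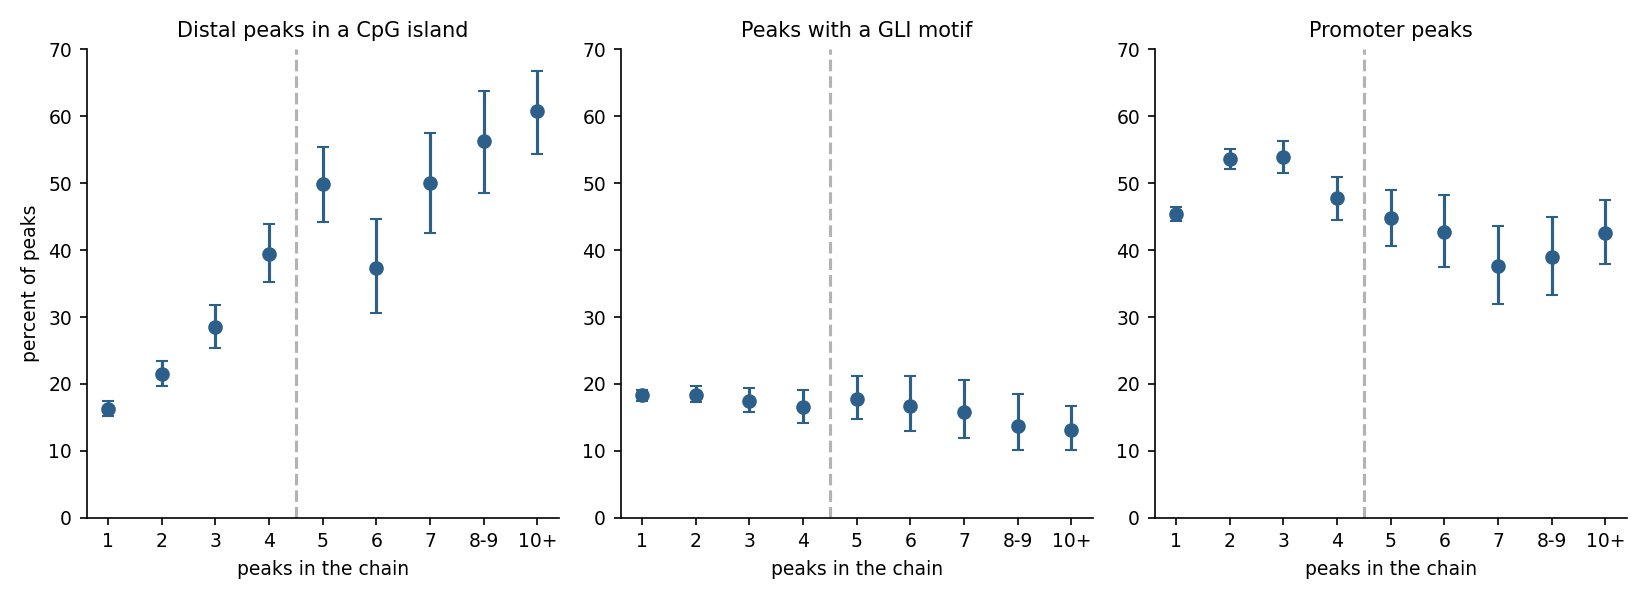
Percent of peaks (vertical axis, 95% Wilson intervals) by the number of peaks in their chain (horizontal axis; 1 stands for unchained), for distal peaks in a CpG island, peaks with a GLI motif and promoter peaks. The dashed line marks the rule's limit of 5; the distal island share goes from 16.3% to 60.8%, while the motif share lies between 13.1% and 18.4%.

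The GLI motif comparison depended on which members were counted. A motif lay under 282 of 1804 members (15.6%, interval 14.0 to 17.4) and 1516 of 8283 unchained peaks (18.3%), an odds ratio of 0.827 (interval 0.720 to 0.950, adjusted exact p = 0.00899). With 1 peak per chain the values were 17.0% and 18.3% (Fisher's exact p = 0.625), so the call was lost, and with the strongest peak of each chain the direction turned, at 63 of 259 (24.3%) against 18.3% (odds ratio 1.43, Fisher's exact p = 0.0181). Among peaks with an FDR under 0.05 a motif lay under 144 of 756 members and 711 of 3472 unchained peaks (Fisher's exact p = 0.396). The exact consensus lay under 23 members (1.27%) and 207 unchained peaks (2.50%). At the level of chains, 168 of 259 (64.9%) held a motif under at least 1 peak, and 20 an exact one. A chain has 5 to 40 peaks and so several places for a motif, and 17.9% of all autosomal peaks held one. The 64.9% is therefore a description and not a sign of more motifs in chains. The members other than the strongest held a motif in 14.2%. In the windows 2 kb from the summits of all members, the strongest included, the share was 11.3%. With a median gap of 1010 bp between summits, such windows can lie on neighbouring members, so the 11.3% is no clean background.

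Promoter peaks made up a slightly smaller share of members, with 758 of 1804 (42.0%) against 3761 of 8283 (45.4%). The odds ratio was 0.871 (interval 0.786 to 0.966, adjusted exact p = 0.00899), and 0.697 with the first peak of each chain (exact p = 0.0063). Of those first peaks, which lie at the edge of their chains, 36.7% were promoter peaks, a lower share than among all members. With the strongest peak of each chain the odds ratio turned to 1.12, at 125 of 259 promoter peaks (48.3%, Fisher's exact p = 0.375). Against chains of 2 to 4, where 52.9% were promoter peaks, it was 0.645. The other members lay within protein-coding genes (31.9%, against 24.0% of unchained peaks), in other genes (8.09% against 4.90%) or between genes (324 of 1804 members against 2126 of 8283 unchained peaks). In 51 chains no peak was at a promoter, and in 24 every peak was.

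Repeats were rare in both groups. At least 50% of the window was soft-masked in the RefSeq genome at 21 members (1.16%) and 179 unchained peaks (2.16%), an odds ratio of 0.533 (interval 0.338 to 0.841, adjusted exact p = 0.00899). With the first peak of each chain it was 0.891 (exact p = 1), and counting only the summit base turned the direction, at 10.8% and 8.97% (odds ratio 1.22, p = 0.0199).

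The chains were spread unevenly over the chromosomes. Members made up 3.13% of the listed peaks on chromosome 1 and 3.37% on chromosome 16, and 15.5% on chromosome 11 and 15.7% on chromosome 2. Of the chromosomes with a Hox cluster, 2 (HoxD) and 11 (HoxB) had those highest shares, while 6 (HoxA) had 12.9% and 15 (HoxC) had 9.43%, below the 10.7% of all autosomes. Chromosome 8, which carries none, had 14.0%.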

How the data were processed

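Per the submitters' processing notes, reads were aligned with Bowtie2 2.2.5 to mm10. The study's methods name CisGenome for peak calling and state 2 biological replicates. The study describes its GLI3 binding regions as coming from both, but the deposited list is attached to ChIP replicate 1 and does not itself say whether its values cover 1 replicate or both. The deposited list gives, as the authors computed them, an FDR (a q-value), the largest log2 fold enrichment in each peak, a T statistic (a score that sets the rank) and a −log10 Poisson p-value. Of 17149 listed peaks, 289 on chromosome X, 1 on Y and 5 on unplaced sequence were left out, and 0 peak ends lay beyond a chromosome end in GRCm38.p6.

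Genes came from the GENCODE M21 basic annotation, sequence and soft-masking from the RefSeq GRCm38.p6 genome. A gene was inside a chain when a start site of a protein-coding transcript lay between the first and last summit. Wilson intervals (95%) cover counting error only, and exact depth per library is unknown. Chaining, motif search and tests were tested on simulated data. Python 3.11.15, pysam 0.24.0 and scipy 1.17.1 were used.

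By rule, the text names the 12 chains with most peaks, those holding 1 of the 20 highest-ranked peaks, the 5 with most peaks per kb, chains without a protein-coding start among the 30 with most peaks, and genes of 12 lists inside a chain. A few items that the rule would name are not reported here. Gli1, Gli2, Shh, Hhip, Grem1, Bmi1, Zfp516 and Mrps18a were named after their values were seen. The members and lists were chosen with earlier results of these data known.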

Additional observations from a re-analysis of the deposited data

How the results depend on the processing

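No paired analysis was possible because values per replicate are not part of the peak table, and no replicate could be left out for the same reason. Under 56 alternatives, 20 of them chosen after seeing the data, 38 kept direction, side of the threshold or a count within 1.5 times. The 259 chains became 389 with a 20 kb limit, 38 from peaks with an FDR under 0.05 alone and 53 when peaks within 1 kb were first merged into 1, so that many chains rest on weak or adjoining calls. The count was 178 at 5 kb and 262 with chromosome X. The CpG island odds ratio of 1.78 turned to 0.867 under stricter criteria and 0.323 among promoter peaks alone. The GLI motif odds ratio of 0.827 was no longer past the threshold with 1 peak per chain (0.914), with an FDR under 0.05 (0.914), among promoter peaks (0.865) and with 1 distal peak per chain (0.790). The repeat odds ratio of 0.533 lost its call with 1 peak per chain (0.891), with an FDR under 0.05 (0.686), in chains still of 5 or more after merging (0.945) and with 1 distal peak per chain (0.534). It turned to 1.49 against chains of 2 to 4, to 9.97 among promoter peaks (4 of 758 against 2 of 3761) and to 1.22 at the summit base. The cause of these changes was not tested. The promoter odds ratio ran from 0.605 to 0.860 under 8 of its 9 alternatives. With the strongest peak of each chain in place of all members it turned to 1.12, and the GLI motif odds ratio turned to 1.43.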
